A study of Mus musculus with 2 samples.

Results

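The cadherin superfamily in 2 mouse epiblast stem cell clones is described here gene by gene: every array probe whose gene name begins with Pcdh, or is Cdh followed by a number, except Cdh1 and Cdh2. That rule took 71 of the 31736 gene names on the array and 91 of its 39272 probes, and it used no measured value. Epiblast stem cells (EpiSC) are pluripotent cells that resemble the epithelium of the postimplantation embryo. EpiSC clone 1 and EpiSC clone 2 were both wildtype, female and of strain C57BL/6, both were collected with trypsin at passage 9, and neither carried an engineered allele or received an agent that the labels name. From each clone, 0.2 µg of RNA was copied into Cy3-labelled cRNA and hybridised to 1 Agilent array with 60-base probes, so each group is 1 clone and 1 array. Every difference between the clones below therefore has no replicate check and no p-value, and clone and array cannot be told apart. The arrays read RNA from whole cultures, in which fewer cells of a type and less RNA per cell cannot be told apart.

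Levels are given as log2 of the spot signal relative to the 75th percentile of all probes of the same array, which was 819 for clone 1 and 726 for clone 2 in signal units. On this scale the median of the 153 negative control spots was -6.68 in clone 1 and -6.67 in clone 2, and the lowest signal that the scanner software marked as well above background was -4.54 and -4.55. A probe marked in that way is called detected. A probe's brightness depends on its sequence as well as on its transcript, so the clones were compared within each probe, and signals of different probes are not read as amounts of transcript. All 6 epiblast stem cell markers read (Pou5f1, Nanog, Sox2, Fgf5, Otx2 and Dnmt3b) were detected on both arrays, and none was 2-fold apart. All 8 fibroblast markers were detected on both arrays as well. Detected probes of the same sequence printed 10 times differed between spots by a median SD of 0.07 in clone 1 and 0.08 in clone 2. It was 0.11 and 0.13 for detected probes with a signal below -2, and 0.28 and 0.34 for probes not detected.

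Cadherins are calcium-dependent adhesion proteins that span the membrane, with repeated cadherin domains outside the cell. Classical cadherins bind catenins inside the cell and so reach the actin cytoskeleton, and epithelia and mesenchyme are known for holding different ones. Protocadherins lack the catenin-binding tail. The clustered protocadherins lie in 3 neighbouring gene arrays named alpha, beta and gamma, from which neurons choose promoters stochastically. The alpha and gamma transcripts join a variable first exon to constant exons shared by the whole array, while the beta genes have 1 exon each. The non-clustered delta protocadherins lie elsewhere and are known mainly from the nervous system and from morphogenesis in the embryo.

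Several genes had probes that read differently or lay far apart, and the first 30 of the 60 bases are shown for those on which a result turns, with mm9 positions of the whole probe as the scanner files give them. The Cdh18 probes are shown because 1 of them gave a strong signal on both arrays and the other was not well above background on either. The first lay at chr15:22866615-22866674 and was designed against a predicted transcript, and the second lay 537 kb away at chr15:23404051-23404110.
Cdh18 probe 1: gaggcttgtctatcccttgtagtgtcaaat
Cdh18 probe 2: agctcactggactccgcaaccacgcaatca
The Pcdh11x probes are shown because the first was detected on both arrays and the second on neither. The first, also against a predicted transcript, lay at chrX:117405435-117405494, 614 kb from the second at chrX:118019923-118019982.
Pcdh11x probe 1: aggaaagactttttaggggttgagtgaaga
Pcdh11x probe 2: ttctccaatcatagaggaacaccccttgta
The probes of Cdh10 (chr15:18943342-18943401), Cdh15 (chr8:125391031-125391090), Pcdh21 (chr14:37891387-37891446) and Pcdh24 (chr13:54837957-54838016) are shown because they gave the differences of at least 2-fold between the clones.
Cdh10: ggagaccaaaactacgattacctccgagaa
Cdh15: ggcccatccttggctccatggcagataaac
Pcdh21: tgtaataatcttgaggagggatatcctgca
Pcdh24: ttcgagctcaaaccgtactgtctgccctcc
The second Cdh11 probe and the Cdh26 probe are shown with capitals on a stretch of 21 bases that probes of other genes hold as well.
Cdh11 probe 2, bases 4 to 33: gaacTGTTTGAAATCACAACAGACTgaaac
Cdh26, bases 25 to 54: ccctTGAACTGTGAGCCAGAATAAAccctt
All 91 probes lay on the chromosome that RefSeq gives for the gene they were matched to. The files do not place the probes in exons or UTRs, and no annotation of mm9 was used here.

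Most of these genes were not detected in either clone. Of the 71 genes, 24 were detected on both arrays by at least 1 probe, 3 on the clone 1 array only (Cdh9, Cdh15 and Pcdhb5), 2 on the clone 2 array only (Pcdhb4 and Pcdhgc5) and 42 on neither. Among all gene names on the array, 54.5% were detected on both arrays, 2.60% on clone 1 only and 2.80% on clone 2 only. Counted by probe, 27 of the 91 were detected on both arrays, 4 on clone 1 only, 2 on clone 2 only and 58 on neither, against 54.7% of all probes detected on both. By family, 11 of the 22 genes named Cdh were detected on both arrays, 9 of the 14 non-clustered protocadherins, and 4 of the 35 clustered ones. Without probes listed for several isoforms, no alpha or gamma protocadherin was detected on both arrays. The count depended on the detection rule. A laxer flag, which asks only for a spot significantly above its background, gave 52 genes on both arrays, and a threshold at the 95th percentile of the negative controls gave 49. The share of all gene names under these rules is not given here, so 52 and 49 cannot be set against the whole array. No member probe was saturated.

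Each of the 3 type I classical cadherins read here was detected in at least 1 clone. Cdh3 encodes P-cadherin, an epithelial cadherin whose gene neighbours that of E-cadherin, Cdh1, with no protein-coding gene of RefSeq between them. Its level was 0.71 in clone 1 and 1.29 in clone 2, a 1.49-fold difference, where the error the scanner software gives for the spots combines to 0.20 (log2). One of the 4 spots next to it was higher in clone 2 by 1.01, and what that spot's surroundings contributed was not tested. Cdh1, which the rule leaves out, was higher in the same clone (2.17 and 3.11, 1.92-fold), and Cdh2, for N-cadherin, was higher in clone 1 (1.45 and 0.84, 1.53-fold).

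Cdh4 encodes R-cadherin, known from the retina and the kidney. Its brightest probe read -1.32 in clone 1 and -1.57 in clone 2. The second probe gave nearly the same pair, -1.35 and -1.65, and the third, which lies closer to the start of the transcript, was not detected on either array. The direction of the first probe turned with normexp background correction (to 0.04), so no order of the clones can be given for Cdh4.

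Cdh15 encodes M-cadherin, known from skeletal muscle and its stem cells. It read -1.89 in clone 1, a raw signal of 221, and -4.96 in clone 2, a raw signal of 23.3 that was not well above background. Set against the lowest detected signal of the clone 2 array, it was at least 6.32-fold higher in clone 1. A bound of at least 2-fold was reached by 1 of the 3 members whose brightest probe was detected on clone 1 only, and by 25.8% of such genes over the whole array. Of the 4 spots next to the Cdh15 spot, 2 were also more than 2-fold higher in clone 1 (differences of -2.18 and -1.65). Neighbouring spots were read whether or not they were detected, control spots included. What the place on the slide contributed to the Cdh15 value was not tested. With normexp the measured difference was -0.86 in place of -3.07. The muscle regulators Myod1, Myf5, Myog and Pax7 were not detected on either array. Of the 5 muscle markers only Des was detected, and their summed signal, in units of the 75th percentile, was 0.337 in clone 1 and 0.394 in clone 2. Most of that sum came from the Des probe (log2 of -2.02 and -1.72).

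**Figure D1:**
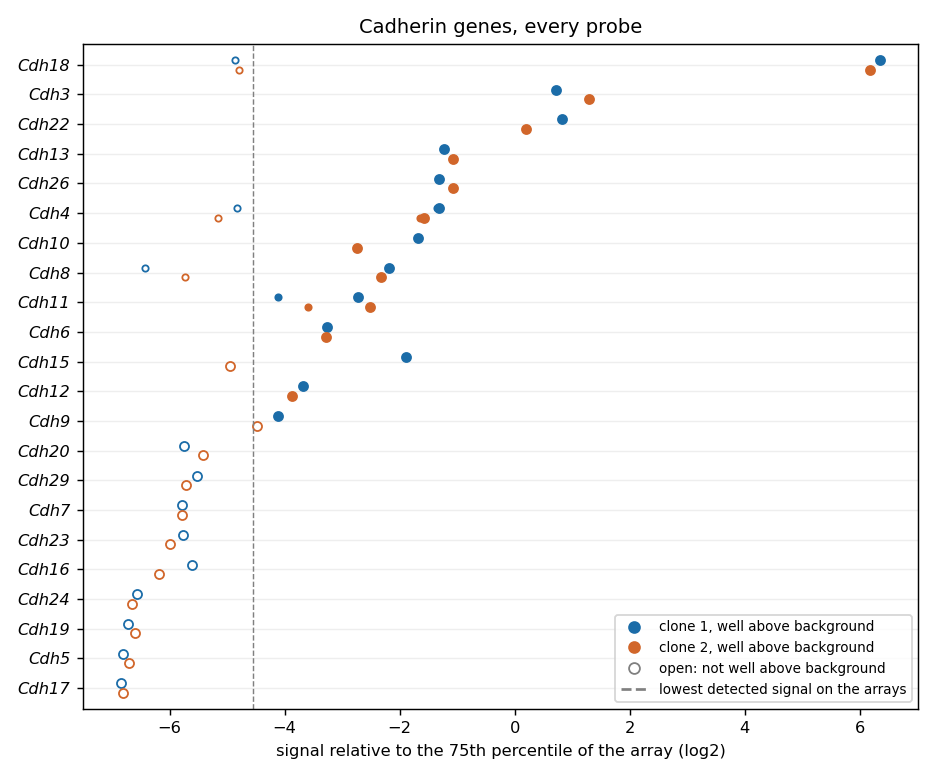
Level of every probe of the genes named Cdh in clone 1 (blue) and clone 2 (orange), with large points for the brightest probe of a gene and small points for its other probes, as log2 of the signal relative to the array's 75th percentile. Filled points were well above background and open points were not, and the dashed line is the lowest detected signal. Cdh18 stands at 6.36 and 6.17, Cdh3 and Cdh22 lie above 0 on both arrays, and the large points of Cdh15 lie farthest apart.

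Type II classical cadherins, known for sorting neurons and mesenchymal cells into groups, were detected on both arrays for 7 of 13 genes. Cdh18 encodes a cadherin of the central nervous system. Its first probe read 6.36 in clone 1 and 6.17 in clone 2, raw signals of 67282 and 52417, which put it at percentiles 98.9 and 98.4 of all probes. The second Cdh18 probe, designed against a curated transcript, read -4.87 and -4.80 and was not detected on either array. The probes of Cdh18 disagree, so the bright reading holds for the position of the first probe alone. No other probe on the array shares a stretch of 18 or more bases with it.

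Cdh22, a cadherin of brain and pituitary, read 0.82 in clone 1 and 0.19 in clone 2. The 1.54-fold excess in clone 1 had a combined spot error of 0.20, and Cdh22 stayed higher there with normexp (a difference of -0.68). Cdh10, also a brain cadherin, read -1.68 in clone 1 and -2.75 in clone 2, raw signals of 256 and 108. This 2.09-fold difference was 4.70 times its combined spot error, and none of the 4 spots beside it was 2-fold apart. With normexp the difference kept its direction at -0.29.

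Cdh11, or OB-cadherin, is known from mesenchyme and bone. Its first probe read -2.73 and -2.52, with raw signals of 123 and 127. The second read -4.11 and -3.60, and the 21 bases shown above are also in the probe of 6820431F20Rik, which read 2.13 and 2.14. The fibroblast markers, all detected, had a summed signal of 61.2 in clone 1 and 64.6 in clone 2, and their part in the Cdh11 signal was not tested. Cdh8, of the brain, read -2.19 and -2.33 with its first probe, while its second probe, 1.97 kb away, was not detected. Cdh12, also of the brain, read -3.69 and -3.87, and Cdh6, for K-cadherin of kidney and neural crest, read -3.26 and -3.28. For Cdh6, Cdh8 and Cdh12 the clones differed by less than the combined spot error. Cdh9, known from synapses, was detected in clone 1 only, at -4.12 against -4.49, a bound of 1.29-fold. With normexp its direction turned (0.53), so no order of the clones is given for Cdh9. Cdh5 of endothelium and Cdh7, Cdh19, Cdh20 and Cdh24 were not detected on either array. Beside the undetected Cdh5, 3 of 7 endothelial markers were detected on both arrays, among them Kdr (1.07 and 1.85), while Tek, Tie1, Emcn and Cldn5 were not.

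Of the 6 cadherins outside these classes, 2 were detected on both arrays. Cdh13 encodes T-cadherin, which is anchored to the membrane by a lipid and has no cytoplasmic tail. It read -1.23 and -1.07. Cdh26, an epithelial cadherin, read -1.32 and -1.07, but its probe shares 21 bases with a probe of BC068157, which read 1.66 and 2.20, and 19 bases with a probe of 2610002J02Rik, which read 3.78 and 3.83. Signal from those transcripts on the Cdh26 probe was not tested. Cdh16 of kidney, Cdh17 of liver and intestine, Cdh23 of the hair cell tip link and Cdh29 were not detected, and neither were any of the 5 kidney and intestinal markers.

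The delta-1 protocadherins were detected on both arrays for 3 of 4 genes. Pcdh1, known from epithelia, read 0.74 and 0.88, raw signals of 1366 and 1337. Pcdh11x, an X-linked gene of the brain, read -1.06 in clone 1 and -2.17 in clone 2 with its first probe, raw signals of 394 and 161. This was a 2.16-fold difference with a combined spot error of 0.22, and none of its neighbouring spots was 2-fold apart. The second Pcdh11x probe was not detected (-5.27 and -5.71), so this difference too rests on a probe for a predicted transcript. Pcdh7, whose long form binds a protein phosphatase, read -3.41 and -3.52 with its brightest probe. Another Pcdh7 probe was detected in clone 1 only, at -4.11 against -4.78, and the third in neither clone. Pcdh9 was not detected by any of its 3 probes.

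The delta-2 protocadherins, several of which bind the WAVE actin regulators, were detected on both arrays for 4 of 5 genes. Pcdh19, an X-linked gene in which mutations cause epilepsy, read 0.03 and -0.04, raw signals of 836 and 705. Pcdh18 read -1.21 and -1.70, a difference 2.28 times its combined spot error that shrank to -0.06 with normexp. Pcdh17 read -2.24 and -2.51. Pcdh8, known from paraxial mesoderm, read -2.27 and -2.47. For Pcdh8, Pcdh17 and Pcdh19 the lower reading in clone 2 became a higher one with normexp. Pcdh10 was not detected by either of its probes, of which the brighter read -4.62 and -4.15. All 10 signalling partners read, among them several subunits of the WAVE complex, were detected on both arrays with a median difference of 0.08. Wasf2 read 3.77 and 3.88, Wasf1 2.26 and 2.59, and Cyfip1 2.14 and 2.37.

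Among the other non-clustered protocadherins, 2 of 5 were detected, and both were higher in clone 2. Pcdh21, named Cdhr1 in RefSeq and known from photoreceptors, read -2.93 in clone 1 and -1.75 in clone 2, raw signals of 108 and 216. The 2.26-fold excess in clone 2 had a combined spot error of 0.24, and differences of its neighbouring spots lay between -0.40 and 0.11. Pcdh24, named Cdhr2 in RefSeq and known for linking the tips of microvilli in intestine and kidney, read -1.04 and 0.04, raw signals of 400 and 745. The 2.10-fold excess in clone 2 had a combined spot error of 0.21, and 1 of its 4 neighbouring spots was higher in clone 2 by 1.61, whose part was not tested. With normexp both stayed higher in clone 2, by 0.89 and 0.99. Pcdh12 of endothelium, Pcdh15 of the tip link (7 probes, between -6.76 and -4.44) and Pcdh20 were not detected on either array.

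**Figure D2:**
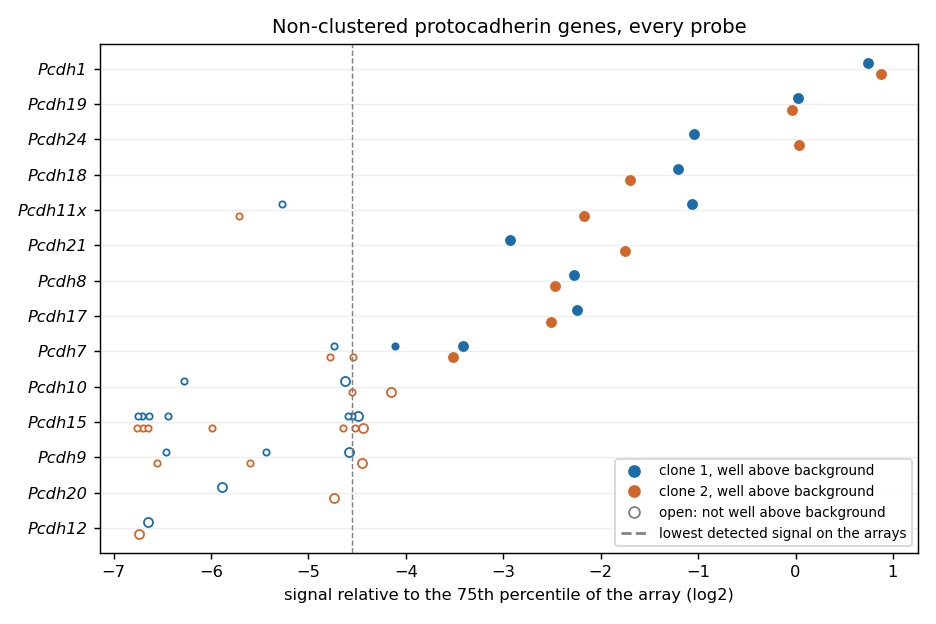
Level of every probe of the 14 non-clustered protocadherins in clone 1 (blue) and clone 2 (orange), as log2 of the signal relative to the array's 75th percentile. Large points are the brightest probe of a gene and small points its other probes, filled points were well above background, open points were not, and the dashed line is the lowest detected signal. Pcdh1 and Pcdh19 are near 0, and Pcdh21, Pcdh24 and Pcdh11x show the widest gaps among detected genes.

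In the protocadherin clusters on chromosome 18, detection went with whether a probe is listed for several isoforms. The array names 7 of the 14 alpha isoforms of RefSeq, all 22 beta genes and 6 of the 22 gamma isoforms, with 38 probes in all. The 4 probes that the files list for 3 or 4 isoforms were all detected on both arrays. Of the 34 probes listed for 1 isoform, 1 was detected on both arrays (Pcdhb21), 1 on clone 1 only, 2 on clone 2 only and 30 on neither. Those 30 lay between -6.85 and -4.86 in clone 1 and between -6.86 and -4.98 in clone 2, a range that starts at the negative controls. A probe listed for several isoforms does not say which of them was transcribed.

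The 2 probes named Pcdhga9 are listed for 4 gamma isoforms and lie beyond the last single-isoform gamma probe in map order. They read 4.51 and 4.43, raw signals of 18662 and 15687, and -1.43 and -0.92. The brighter probe has 1 neighbouring spot with a difference of -1.56. Of the single-isoform gamma probes, Pcdhgc5 was detected in clone 2 only (-4.98 and -4.29), and Pcdhga1 (-4.86 and -4.98), Pcdhgb1 (-4.98 and -4.99) and Pcdhga10 (-6.33 and -5.20) were not detected. In the alpha cluster, the probe named Pcdhac2 that is listed for 4 isoforms read -1.20 and -1.40. It lies 41.5 kb downstream of the other Pcdhac2 probe, which was not detected (-5.51 and -5.38). Pcdha8 read -3.0 and -3.69 with the probe listed for 3 isoforms, and its own probe was at -6.85 and -6.77. Pcdhac1, Pcdha11 and Pcdha12 were not detected, with readings from -6.63 to -5.02.

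Among the beta genes, Pcdhb21 read -3.78 and -3.86. Pcdhb4 was detected in clone 2 only (-5.59 and -4.01). Pcdhb5 was detected in clone 1 only (-4.37 and -6.76), with a bound of 1.14-fold and 1 neighbouring spot with a difference of -2.06. With normexp its direction turned (0.25). Pcdhb16 (-5.02 and -5.16), Pcdhb22 (-5.18 and -5.24) and Pcdhb8 (-5.36 and -5.07), were not detected. Pcdhb3 was printed 10 times, and its mean was -6.73 on both arrays, with an SD between spots of 0.15 (9 spots) in clone 1 and 0.14 (10 spots) in clone 2, at the level of the negative controls. All 15 genes read from the list of proteins that act on these clusters were detected on both arrays, with a median difference of -0.02. The list holds CTCF and cohesin, which loop the cluster enhancers to promoters, and the DNA methyltransferases and Smchd1. Dnmt3b read 5.98 and 6.23, and the cohesin subunits read 4.23 and 4.26 (Rad21) and 4.26 and 3.97 (Smc1a).

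**Figure D3:**
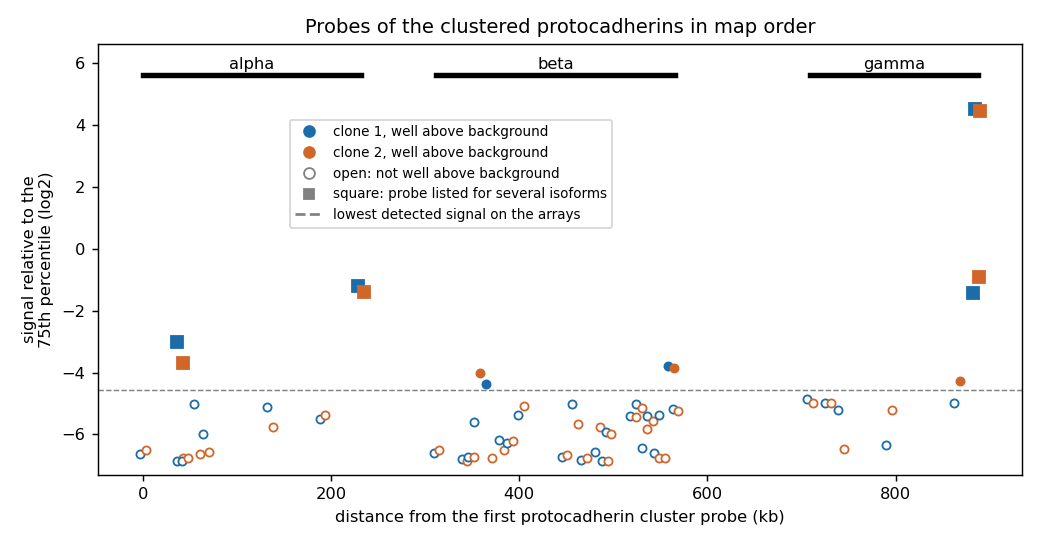
Probes of the clustered protocadherins in map order, by distance in kb from the first of them (horizontal) and log2 signal relative to the array's 75th percentile (vertical), for both clones. Squares are probes listed for several isoforms, open symbols were not well above background, and the dashed line is the lowest detected signal. The 4 squares are all filled, and 30 of the 34 probes shown as circles are open in both clones.

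Between the clones, 4 of the 24 genes measured on both arrays by their brightest probe differed by at least 2-fold, Pcdh21 and Pcdh24 higher in clone 2 and Cdh10 and Pcdh11x higher in clone 1. Over all 17282 genes measured in this way, 1.62% were at least 2-fold higher in clone 2, 1.24% in clone 1, and 2.86% in either direction. The 24 member genes measured on both arrays gave low signals, with a median of -1.32 in clone 1 and -1.72 in clone 2. The medians of all genes measured in this way were -0.06 and -0.05. Among the 8795 genes with a mean level below 0, a subset chosen after the values were seen, 2.00% were at least 2-fold higher in clone 2, 2.10% in clone 1 and 4.10% in either direction. With 1 array a clone, the members' share was not tested against these. Of the members, 18 of 24 lay within 1.5-fold, against 90.2% of all genes. The 1.5-fold share of genes with a mean level below 0 is not given here. These shares are therefore not read as a wider spread particular to the members.

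The direction of the members as a whole turned with normexp background correction. The median difference, clone 2 minus clone 1, was -0.12 over the 24 members and 0.04 over all genes, with 7 members higher in clone 2 and 17 in clone 1. With normexp 18 were higher in clone 2 and 6 in clone 1, and the median was 0.19 where that of all genes was 0.12, so no direction is given for them. The 11 genes whose sign turned were Cdh4, Cdh6, Cdh8, Cdh12, Pcdh7, Pcdh8, Pcdh17, Pcdh19, Pcdha8, Pcdhac2 and Pcdhb21. The type II cadherins had a median of -0.18 that became 0.21, and the delta-2 protocadherins one of -0.24 that became 0.13. The 4 genes that were 2-fold apart kept their direction with normexp, but none of them stayed 2-fold apart. The normexp setting started from mean spot signals and median background signals, not from the processed signals used elsewhere. It also adds an offset of 50, which narrows the fold differences of dim probes. In the lower clone the raw signal was 108 for Cdh10 and for Pcdh21, 161 for Pcdh11x and 400 for Pcdh24. Over all genes the share 2-fold apart also fell with normexp, from 2.86% to 1.61%. What the offset, the other input signals and the background subtraction each contributed to the loss of 2-fold was not tested. The loss is read neither as a sign that these differences are absent nor as an effect of the offset.

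**Figure D4:**
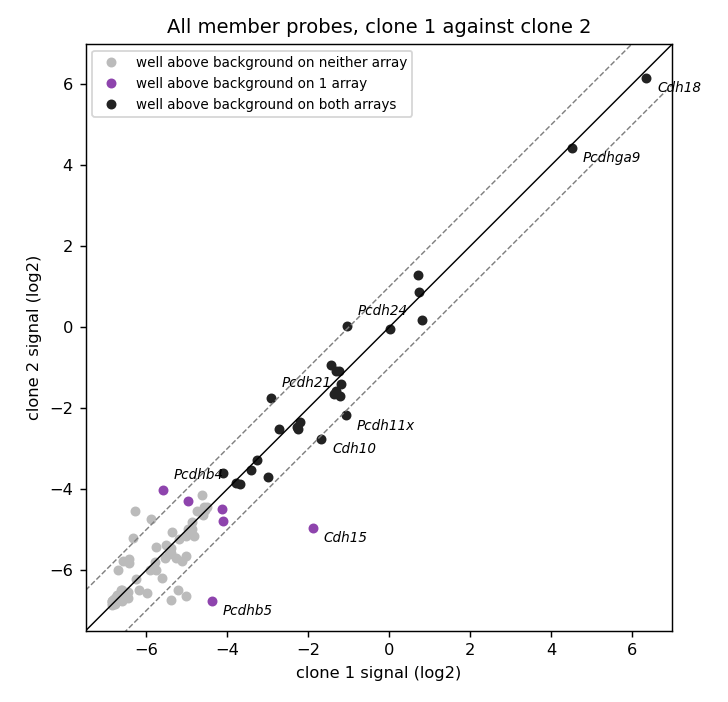
Each member probe in clone 1 (horizontal) against clone 2 (vertical), as log2 of the signal relative to the array's 75th percentile, black where it was well above background on both arrays, purple on 1 and grey on neither. The solid line marks equal signal and the dashed lines a 2-fold difference. Most detected probes lie close to the diagonal. Cdh15, Pcdhb5 and Pcdhb4, each detected on 1 array, and Cdh10, Pcdh11x, Pcdh21 and Pcdh24 lie farther from it.

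**Figure D5:**
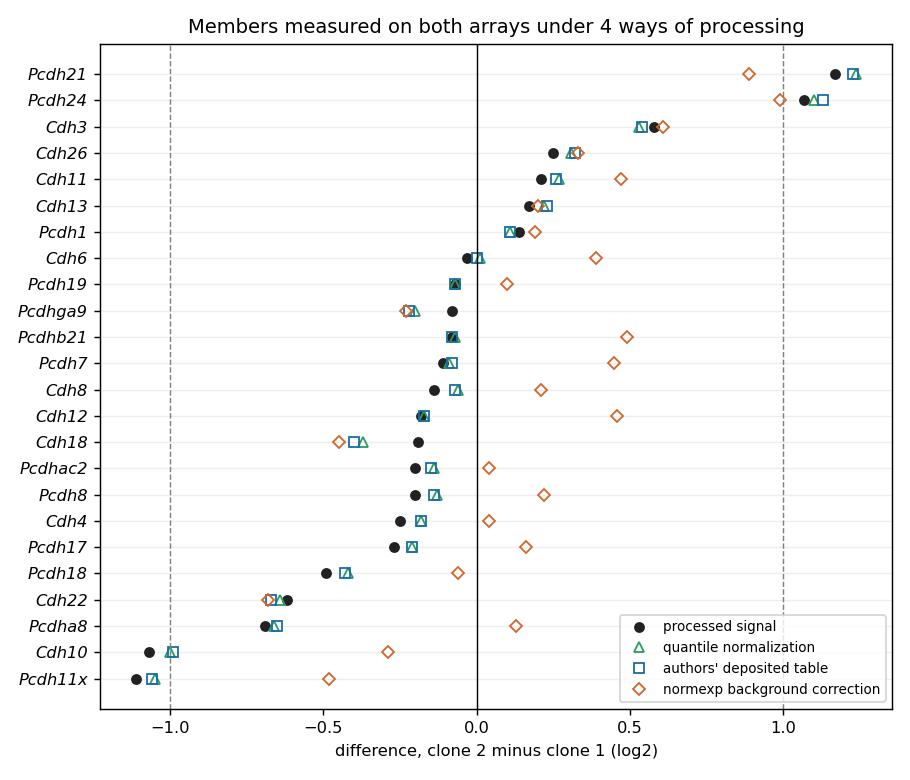
Log2 difference, clone 2 minus clone 1, of the 24 members measured on both arrays, under 4 ways of processing the same arrays, with dashed lines at 2-fold. The 4 genes past 2-fold keep their side under each, and with normexp 11 of the other genes change sides.

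Most genes on the lists of partners were detected in both clones. Of the 11 catenins and linked proteins, which tie classical cadherins to actin, 10 were detected on both arrays and Ctnna3 was not. Ctnna1 read 5.15 and 5.35, Ctnnd1, which holds cadherins at the membrane, 3.64 and 3.88, and Ctnnb1 3.27 and 3.22. Of the 15 other superfamily genes read, 10 were detected on both arrays, among them the planar polarity and growth regulators Fat1 (3.89 and 4.15), Celsr1 (1.58 and 1.90) and Celsr3 (1.43 in clone 1, and 0.07 more in clone 2). Fat3, Fat4, Clstn2 and Ret were not detected. The desmosomal cadherin Dsg2 was detected in clone 2 only (-4.71 and -2.98), at least 2.95-fold higher there, where 20.6% of all genes detected on clone 2 only reached a bound of 2-fold. No gene of the catenin, superfamily, cluster regulator or signalling lists that was measured on both arrays was 2-fold apart, and the medians were -0.07 for the catenins and 0.20 for the superfamily genes. Of the neural markers, 2 of the 5 read were detected on both arrays and Neurod1 and Dcx on clone 1 only. The summed signal of the neural markers was 2.83 in clone 1 and 2.47 in clone 2. Most of it came from the Tubb3 probe (log2 of 1.29 and 1.15), and Pax6 was not detected. The part of these markers in the readings of the brain cadherins Cdh10 and Cdh22 was not tested.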

How the data were processed

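Both arrays were read from the scanner output that the authors deposited, a background-subtracted spot intensity with flags, made with Agilent Feature Extraction per the submitters' processing notes. Processed signals of non-control spots were used after 277 outlier spots of clone 1 and 246 of clone 2 were left out. The signal of each array was divided by its 75th percentile and log2 was taken. Spots of a probe were averaged, and the well-above-background flag on 50% or more of them made a probe detected. A gene's value is its brightest probe, and a gene is detected if any probe is. A bound sets the detected signal against the lowest detected signal of the other array, or against the probe's own reading there where that is higher. The authors' deposited log2 table served as an alternative, with a normalization not given in the sources used here. Normexp (offset 50) used limma 3.58.1 in R 4.3.3. It was run on mean spot signals and median background signals, not on the processed signals. The offset is added to the signals and narrows the fold differences of dim probes. The count of genes 2-fold apart was tested on simulated levels, with every gene set as detected. That simulation did not pass through outlier removal, scaling or detection. Genes were matched to RefSeq by accession for 86 of the 91 probes. All Cdh genes detected in a clone, Pcdh genes 2-fold apart and the 5 brightest of each Pcdh group were named, with the brightest 3 of each other list. The members and all lists were chosen with earlier results of these data known.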

Additional observations from a re-analysis of the deposited data

How the results depend on the processing

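The number of arrays limits precision: with 1 array per clone leaving out 1 array in turn was not possible, and no difference has a replicate error. No paired analysis was possible because each clone has 1 array and both carry the same single replicate number. A probe that was not well above background can still lie above the negative controls, so absence of a transcript is not shown.

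Of 241 recomputed log2 differences and medians, 29 changed sign, 18 of them with normexp. A median counts as reversed below where its size was at least 0.17, the SD of a difference for dim probes. The 24 genes detected on both arrays became 52 with the laxer flag and 49 with the negative control threshold. They became 21 without probes listed for several isoforms. Without probes of predicted transcripts, an alternative chosen after seeing the data, they became 22. Matching counts over all genes without such probes are not given here. The 2 genes at least 2-fold higher in clone 2 became 0 with normexp, 1 when scaled over detected probes, 1 without spots beside a 2-fold neighbour, 0 at 3-fold and 5 over all 71 genes whatever their detection. The 2 higher in clone 1 became 0 with normexp, 1 in the authors' deposited table, 1 with the mean of all probes, 1 without predicted transcripts (an alternative chosen after seeing the data), 4 at 1.5-fold, 0 at 3-fold and 7 whatever the detection. For the other detection rules, the 1.5-fold and 3-fold counts and the counts whatever the detection, the matching counts over all genes are not given here. The median of -0.12 became 0.19 with normexp. Normexp also reversed the medians of the type II cadherins (0.21), the alpha protocadherins (0.08) and the delta-2 protocadherins (0.13). The cause was not tested. Over all genes, scaling over detected probes turned the split of 280 higher in clone 2 and 215 in clone 1 into 217 and 253, and normexp gave 190 and 89.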

Other observations

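Probes that the rule does not take, because their names do not begin with Cdh or Pcdh, also read protocadherin sequence. Within the span of the clusters, the probe described as similar to protocadherin gamma B5 read -3.38 in clone 1 and -3.46 in clone 2, and the one similar to alpha 12 read -3.71 and -3.69, both detected on both arrays. The probe similar to beta 6 was detected in clone 1 only (-3.84 and -6.74). By position, the one similar to alpha 12 (chr18:37249678-37249737) lies beside the undetected Pcdhac1 probe (chr18:37249950-37250009), not beside the Pcdha12 probe (chr18:37182217-37182276). The one similar to beta 6 (chr18:37495338-37495397) lies beside the undetected Pcdhb6 probe (chr18:37495897-37495956). A probe of a Cdh11 pseudogene read 0.99 and 1.01 on the same scale. Another Pcdh11x probe, named by its transcript, was detected in clone 1 only (-4.08 and -5.20). The lowest detected signals of the arrays were -4.54 and -4.55. Since the probe was detected only where it was higher, it adds no support to the difference of the first Pcdh11x probe.

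RefSeq promoters of 300 bases, on the GRCm38.p6 build, were given for 14 of the 24 genes detected on both arrays and 9 of the 42 detected on neither. They held a median of 11.5 and 18 CpG dinucleotides, against 7 over all 27025 promoters. So few of the undetected genes have a promoter there that no difference can be read from this.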
